A study of Mus musculus with 7 samples.

Results

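The CXC chemokine ligands expressed by cancer-associated fibroblasts (CAFs) of mouse pancreatic tumors were compared between tumors with and without silencing of Brca2 in the cancer cells. 10 genes chosen by name were looked up in the table of counts per gene: Cxcl1, Cxcl2, Cxcl5, Cxcl9, Cxcl10, Cxcl12, Cxcl13, Cxcl14, Cxcl15 and Cxcl16. A row was found for 9 of the 10, out of 12771 genes listed, and Cxcl15 was not analysed here. The tumors grew after KPC cells, a mouse pancreatic cancer line, were injected into the pancreas of male C57BL/6 mice (C57BL/6 J in the methods) that were 8 weeks old, and they were taken 2 to 3 weeks later. The cancer cells carried a lentiviral short hairpin RNA against Brca2 (shBrca2, 4 libraries) or a non-targeting hairpin (shControl, 3 libraries, replicates 1, 2 and 4), and both kinds of cells had been selected with puromycin. Each library is taken as a mouse of its own, as the study counts them. The hairpin was in the injected cells only, so the fibroblasts came from a host with its own Brca2 intact. CAFs were sorted as live cells lacking CD45, CD31 and EpCAM and bearing podoplanin (PDPN), a membrane glycoprotein of fibroblasts that mesothelial cells also carry.

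CXC chemokines are small secreted proteins that draw leukocytes along a gradient by binding G protein-coupled receptors. CXCL1, CXCL2 and CXCL5 bind CXCR2 and attract neutrophils, CXCL9 and CXCL10 are interferon-induced ligands of CXCR3 on activated T cells and NK cells, CXCL12 binds CXCR4 and the scavenger ACKR3, CXCL13 attracts B cells through CXCR5, and CXCL16 is made as a membrane-anchored ligand of CXCR6. In pancreatic tumors, inflammatory CAFs are known as a source of Cxcl1 and Cxcl12, and CXCL12 from fibroblasts is known for its part in keeping T cells away from cancer cells.

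Most of the genes lie in clusters on chromosome 5 (RefSeq positions on GRCm38.p6, the assembly that mm10 in the submitters' processing notes names). Cxcl5 (chr5:90759298-90761625), Cxcl1 (chr5:90891245-90893121) and Cxcl2 (chr5:90903899-90905938) lie within 1 neighborhood, in which Cxcl2 starts 12.7 kb after Cxcl1. Cxcl9 (chr5:92321331-92328079, minus strand) and Cxcl10 (chr5:92346638-92348889, minus strand) have their lower coordinates 25.3 kb apart, and Cxcl13 lies further along at chr5:95956939-95961068. Cxcl12 (chr6:117168535-117181368), Cxcl14 (chr13:56288643-56296811, minus strand) and Cxcl16 (chr11:70454389-70459984) lie outside these clusters. The 200 bases before the annotated start are shown for the members with a promoter in RefSeq on which the comparison of the CXCR2 ligands, the CXCR3 ligands and Cxcl12 rests. Capitals mark matches to the NF-κB motif GGGANNTTC, where N is any base, and in Cxcl1 also to the hypoxia element ACGTG, both searched on either strand. No promoter was given for Cxcl5 or Cxcl16.
Cxcl1 promoter, chr5:90891045-90891244, plus strand: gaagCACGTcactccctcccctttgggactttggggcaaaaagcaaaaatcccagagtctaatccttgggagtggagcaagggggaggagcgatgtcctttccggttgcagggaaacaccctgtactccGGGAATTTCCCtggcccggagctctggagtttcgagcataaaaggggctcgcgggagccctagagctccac
Cxcl2 promoter, chr5:90903699-90903898, plus strand: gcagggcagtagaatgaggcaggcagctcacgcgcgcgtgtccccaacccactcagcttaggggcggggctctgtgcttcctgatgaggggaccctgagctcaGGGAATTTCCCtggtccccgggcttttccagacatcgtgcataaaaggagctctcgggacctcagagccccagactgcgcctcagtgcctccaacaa
Cxcl9 promoter, chr5:92328080-92328279, minus strand: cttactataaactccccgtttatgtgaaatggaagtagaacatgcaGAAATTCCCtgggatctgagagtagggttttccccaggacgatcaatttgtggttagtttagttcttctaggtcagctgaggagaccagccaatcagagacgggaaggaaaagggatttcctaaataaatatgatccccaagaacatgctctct
Cxcl10 promoter, chr5:92348890-92349089, minus strand: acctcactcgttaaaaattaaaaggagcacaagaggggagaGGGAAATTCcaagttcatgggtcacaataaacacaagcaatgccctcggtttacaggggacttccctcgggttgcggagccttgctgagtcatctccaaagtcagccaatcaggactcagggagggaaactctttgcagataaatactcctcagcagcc
Cxcl12 promoter, chr6:117168335-117168534, plus strand: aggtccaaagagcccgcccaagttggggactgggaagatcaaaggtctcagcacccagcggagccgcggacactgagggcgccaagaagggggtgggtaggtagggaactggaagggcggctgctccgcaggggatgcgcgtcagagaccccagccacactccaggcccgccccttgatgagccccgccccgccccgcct

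In the longer window from 250 bases before to 50 after the start, the NF-κB letters were found in Cxcl1, Cxcl2, Cxcl9 and Cxcl10, and not in Cxcl12, Cxcl13 or Cxcl14. Cxcl1 and Cxcl2 held the same 11 letters at positions -71 and -97 from the start, where matches on the 2 strands overlap by all but 2 letters each. Of 27025 mouse promoters of this length, 1 per gene, 3.87% held the motif. The hypoxia element, a shorter motif, was found in 19.7%. The interferon element TTTCNNTTT, present in 10.7% of promoters, was found in Cxcl10 at -212, outside the bases shown, and in Cxcl14 at -171. Cxcl13 held the heat shock element GAANNTTC at -177, and Cxcl14 held the interferon-gamma element TTCNNNGAA at -191, which were found in 7.95% and 8.47% of promoters. These are matches of letters, and binding was not measured.

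Values are counts per gene from reads of transcript 3' ends, which are not divided by gene length, scaled by DESeq2 size factors and called normalized counts. Total counts ran from 1898679 to 5990579 per library and overlapped between the groups. Brca2, which the hairpin does not target in these cells, had 12.9 ± 4.2 normalized counts (SD, n = 3) in shControl and 12.2 ± 2.6 (SD, n = 4) in shBrca2, so it does not check the labels. All 9 fibroblast markers were in the table; Dcn and Lum were called lower, and the other 7, Pdgfra, Col1a1 and Pdpn among them, were not called, although Pdpn was lower in every shBrca2 library (457 to 590) than in every shControl library (600 to 670). Genes were called at a DESeq2 adjusted p (Benjamini-Hochberg) under 0.1, provided that the log2 fold change exceeded 0.5 in size and the mean normalized count exceeded 5. Fold changes are shBrca2 over shControl, with standard errors (SE) from the fit. Replicate 2 of shBrca2 stood apart from the other 3 in several genes described here, lying near the control level, and the calls that change without it are named. Replicate 2 of shControl also differed from the rest of its group in several ligands. Without this control library the DESeq2 adjusted p was 0.0044 for Cxcl10, 6.8e-05 for Cxcl12 and 0.0016 for Cxcl5, while Cxcl1 lost its call (0.20).

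Of the 9 CXC ligands, Cxcl1, Cxcl10 and Cxcl12 fell and Cxcl5 rose in shBrca2 CAFs, and Cxcl2, Cxcl9, Cxcl13, Cxcl14 and Cxcl16 were not called. Thus 3 of 9 were called lower, where 5.27% of all 12768 tested genes were, and 1 of 9 was called higher, where 3.77% were. Log2 fold changes were below 0 for 7 members and above 0 for 2. Their median was -0.84, against 0.0079 over all tested genes. Cxcl5 was the sole member whose groups did not overlap, with all shBrca2 libraries above all shControl libraries, as in 7.79% of tested genes. The opposite separation, found in 9.30% of tested genes, was seen in no member. In bulk samples, fewer cells of a type that makes a transcript and less of that transcript per cell cannot be told apart.

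**Figure D1:**
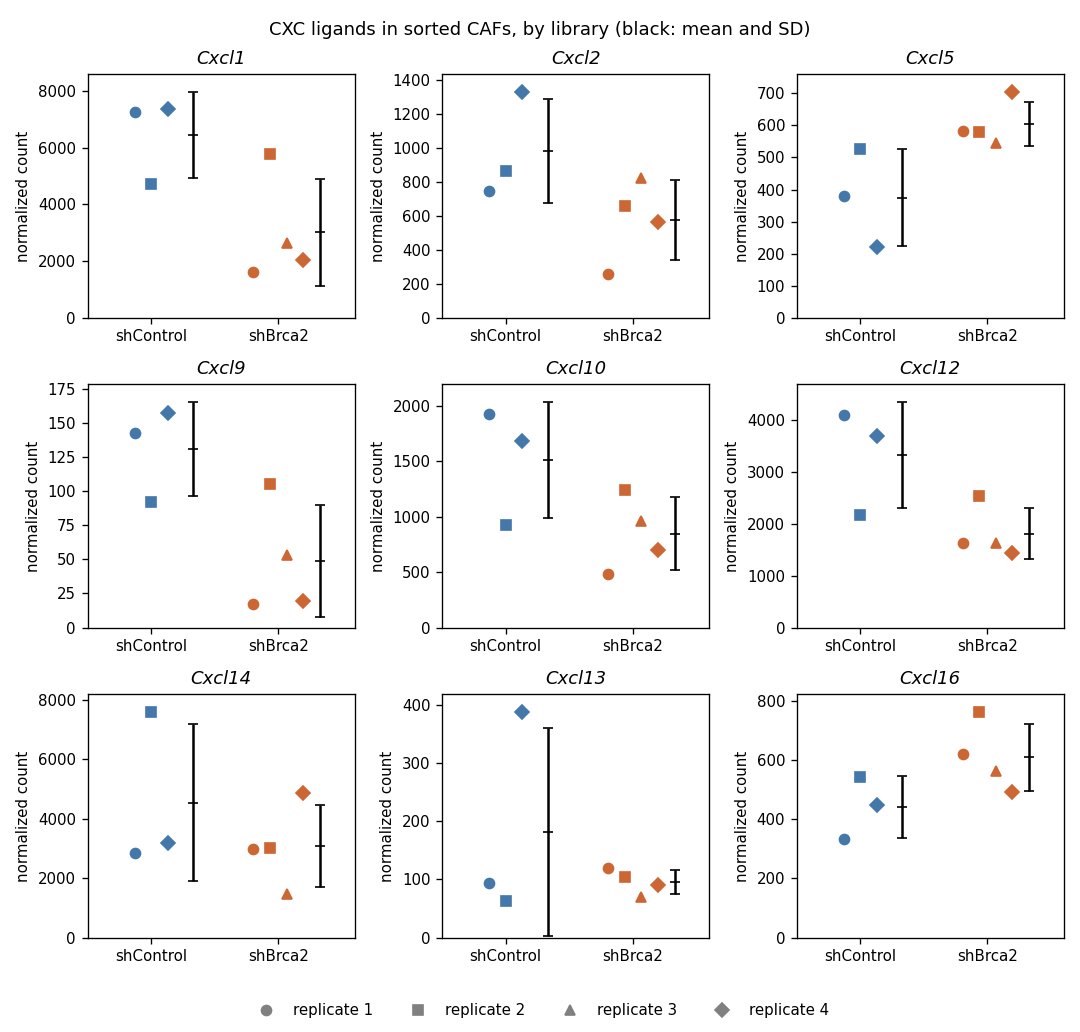
Normalized counts of the 9 CXC ligands in each sorted CAF library (vertical axes from 0), with shControl in blue, shBrca2 in orange, a symbol for each replicate number and the group mean and SD in black. Cxcl1 in shBrca2 replicate 2, at 5777, lay among the shControl libraries, while Cxcl5 had every shBrca2 library above 525, the highest shControl value.

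The CXCR2 ligands moved in different directions. Cxcl1, a main neutrophil attractant that cells make on IL-1 and TNF signals, was found at normalized counts of 7254, 4697 and 7361 in replicates 1, 2 and 4 of shControl, and 1589, 5777, 2637 and 2038 in shBrca2 replicates 1 to 4. Its mean was 6437 ± 1508 (SD, n = 3) against 3011 ± 1894 (SD, n = 4), a log2 fold change of -1.10 (SE 0.37, DESeq2 adjusted p = 0.042). Of the 4 shBrca2 libraries, 3 lay below every shControl library, and replicate 2 lay above shControl replicate 2. Without shBrca2 replicate 2 the log2 fold change was -1.63 (DESeq2 adjusted p = 2.9e-09). Without any other single library the call was lost, with DESeq2 adjusted p from 0.13 to 0.55, and edgeR's quasi-likelihood test gave an adjusted p of 0.11. With the replicate number fitted as a block, the DESeq2 adjusted p was 0.47.

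Cxcl2, the nearest neighbor of Cxcl1 and an attractant of the same cells, had 748, 864 and 1328 normalized counts in shControl and 256, 659, 820 and 564 in shBrca2. The groups overlapped, since shBrca2 replicate 3 lay above shControl replicate 1. The means were 980 ± 307 (SD, n = 3) and 575 ± 238 (SD, n = 4), and the log2 fold change was -0.77 (SE 0.33, DESeq2 adjusted p = 0.16). It was called lower when shBrca2 replicate 3 (DESeq2 adjusted p = 0.039) or shControl replicate 1 (0.094) was left out.

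Cxcl5, a neutrophil attractant also made by epithelial cells, had 379, 525 and 220 normalized counts in shControl and 584, 581, 546 and 703 in shBrca2. All 4 shBrca2 libraries lay above all 3 shControl libraries, and the closest pair were shControl replicate 2 and shBrca2 replicate 3. Its mean rose from 375 ± 153 (SD, n = 3) to 604 ± 68.7 (SD, n = 4), a log2 fold change of 0.69 (SE 0.26, DESeq2 adjusted p = 0.095). The call held in 5 of 12 alternative fits. It was lost without shBrca2 replicate 2 (log2 fold change 0.71, DESeq2 adjusted p = 0.11), and without shControl replicate 4, the lowest library, the log2 fold change was 0.42 (DESeq2 adjusted p = 0.41). In the annotation of GENCODE vM39 (GRCm39), 27.6% of its exon bases are shared with a gene on the opposite strand, and how strand was counted is not given in the sources used here.

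Set against each other, the number of Cxcl1 reads for each read of Cxcl5 was 19.1, 8.95 and 33.5 in shControl and 2.72, 9.94, 4.83 and 2.90 in shBrca2. Replicates 1, 3 and 4 of shBrca2 lay below every shControl library, and replicate 2 lay just above shControl replicate 2. The summed normalized counts of the 3 CXCR2 ligands were 7792 ± 1501 (SD, n = 3) in shControl and 4189 ± 1993 (SD, n = 4) in shBrca2, a 1.86-fold difference of means that mostly followed Cxcl1, the most abundant of them in every library.

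Among the CXCR3 ligands, Cxcl10 fell. Normalized counts of Cxcl10, which both types of interferon induce, were 1923, 924 and 1681 in shControl and 481, 1237, 964 and 702 in shBrca2. The lowest shControl library, replicate 2, lay below shBrca2 replicates 2 and 3. Means were 1509 ± 521 (SD, n = 3) and 846 ± 327 (SD, n = 4), a log2 fold change of -0.84 (SE 0.32, DESeq2 adjusted p = 0.093). The call was lost without shControl replicate 1 (log2 fold change -0.63, DESeq2 adjusted p = 0.38) or 4 (0.24) or shBrca2 replicate 1 (0.29) or 4 (0.25), and under edgeR (adjusted p = 0.14).

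Cxcl9, which depends more closely on interferon-gamma, was the least abundant member, with 19 to 181 raw counts per library. Its normalized counts were 143, 92.3 and 158 in shControl and 17.2, 106, 53.5 and 19.3 in shBrca2. Again shBrca2 replicate 2 lay above the lowest shControl library while the other 3 lay below all of them. The log2 fold change was -1.42 (SE 0.72, DESeq2 adjusted p = 0.28), and without shBrca2 replicate 2 it was -2.21 (DESeq2 adjusted p = 3.0e-06). The means were 131 ± 34.2 (SD, n = 3) and 48.9 ± 41.3 (SD, n = 4). For each raw count of Cxcl9 there were 13.5, 10 and 10.7 of Cxcl10 in shControl and 28.0, 11.7, 18.0 and 36.4 in shBrca2.

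Cxcl12, the CXCR4 ligand of fibroblasts, gave the call that held most often. Its normalized counts were 4099, 2178 and 3700.5 in shControl and 1635, 2532, 1637 and 1440 in shBrca2. Replicates 1, 3 and 4 of shBrca2 lay below all shControl libraries, and replicate 2 lay between shControl replicates 2 and 4. The mean fell from 3326 ± 1014 (SD, n = 3) to 1811 ± 489 (SD, n = 4), a log2 fold change of -0.88 (SE 0.26, DESeq2 adjusted p = 0.015). Cxcl12 was called lower in 10 of 12 alternative fits. Its call was lost without shControl replicate 1 (DESeq2 adjusted p = 0.13) and with the replicate number as a block (0.14). Leaving out single libraries moved the log2 fold change between -1.11 and -0.70.

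Cxcl14, Cxcl13 and Cxcl16 were not called. Cxcl14, a chemokine of epithelia and fibroblasts whose receptor is less certain, had 2836, 7587 and 3190 normalized counts in shControl and 2972, 3027, 1484 and 4859 in shBrca2. The high shControl replicate 2 set the direction of its log2 fold change, which was -0.56 (SE 0.56, DESeq2 adjusted p = 0.69) and 0.034 without that library (DESeq2 adjusted p = 0.96). Its means were 4537 ± 2647 (SD, n = 3) and 3085 ± 1382 (SD, n = 4).

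For Cxcl13, the B cell attractant, shControl replicate 4 stood out in the same way. Normalized counts were 94.0, 62.0 and 387 in shControl and 119, 104, 69.1 and 90.5 in shBrca2, so the other shControl libraries lay within or below the shBrca2 range. The log2 fold change was -0.92 (SE 0.69, DESeq2 adjusted p = 0.54), and 0.30 without shControl replicate 4. Without shControl replicate 2, in contrast, it was -1.32 and Cxcl13 was called lower (DESeq2 adjusted p = 0.018).

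Cxcl16 was the other member with a positive fold change. It had 332, 543 and 450 normalized counts in shControl and 623, 762, 563 and 493 in shBrca2, with only shBrca2 replicate 4 inside the shControl range. Means were 442 ± 105 (SD, n = 3) and 610 ± 114 (SD, n = 4), a log2 fold change of 0.47 (SE 0.22, DESeq2 adjusted p = 0.22). Without shControl replicate 2 it was called higher at 0.64 (DESeq2 adjusted p = 0.069). Reads of Cxcl16 are uncertain, since 84.8% of its exon bases overlap Med11 or Zmynd15 on the opposite strand.

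**Figure D2:**
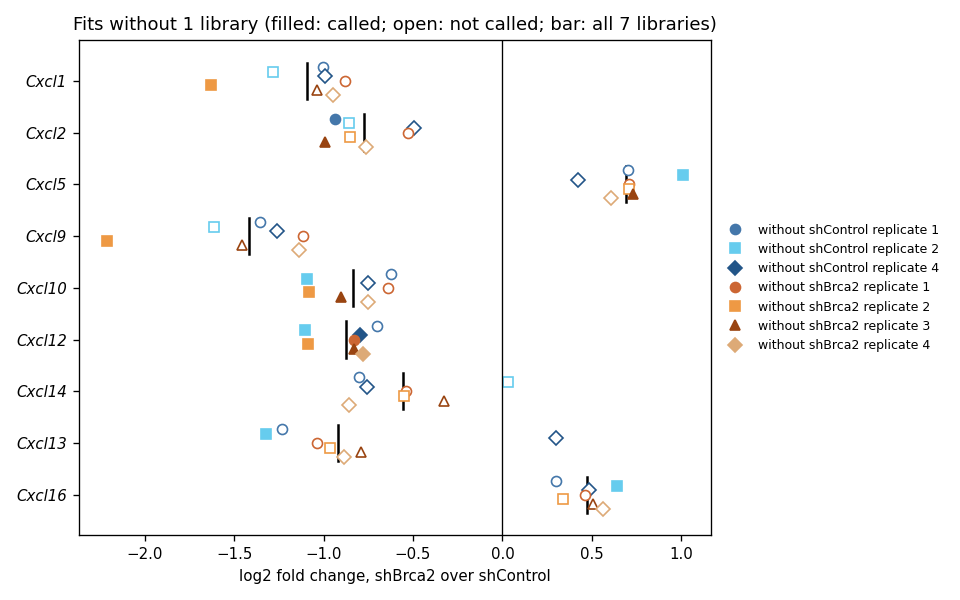
DESeq2 log2 fold changes (shBrca2 over shControl, horizontal axis) of the 9 CXC ligands in fits that each leave out 1 of the 7 libraries; filled symbols were called, open ones were not, and the black bar is the fit with all libraries. Cxcl12 stayed between -1.11 and -0.70, whereas Cxcl13 and Cxcl14 crossed 0 without shControl replicate 4 and shControl replicate 2, reaching 0.30 and 0.034.

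The libraries kept a similar order in several members, but not in all. Replicate 1 of shBrca2 was the lowest of the 7 libraries for Cxcl1, Cxcl2, Cxcl9 and Cxcl10, but ranked 2 from the top for Cxcl5, Cxcl13 and Cxcl16. Replicate 2 of shBrca2 was the highest of its group for Cxcl1, Cxcl9, Cxcl10 and Cxcl12, and for each of these it ranked above shControl replicate 2. For Cxcl16 the same library was the highest of all 7, away from the control level. Cxcl1 had the most counts of the members in shControl replicates 1 and 4 and in shBrca2 replicates 2 and 3, and Cxcl14 had the most in the other libraries. By mean count over the 7 libraries, Cxcl1, Cxcl14 and Cxcl12 ranked 109, 137 and 212 of 12771 genes, and Cxcl9 ranked 5193.

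Summed over the 9 ligands, normalized counts were 17808, 17472 and 18475 in shControl and 8276, 14786, 8774 and 10910 in shBrca2. The 3 shControl sums lay close together, although their makeup differed: shControl replicate 2 had less Cxcl1 and Cxcl12 and more Cxcl14 than the other 2. All shBrca2 sums lay below them, with replicate 2 closest. The means were 17918 ± 511 (SD, n = 3) and 10686 ± 2962 (SD, n = 4), a 1.68-fold difference, given as a description with no test.

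**Figure D3:**
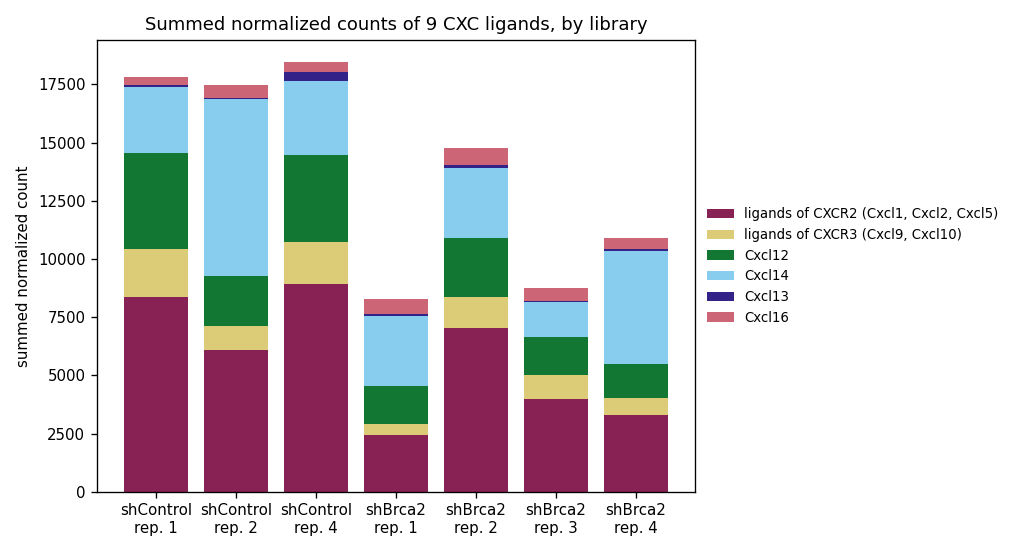
Summed normalized counts of the CXC ligands in each of 7 libraries (vertical axis from 0), stacked by receptor or gene as colored in the key. The shControl sums run from 17472 to 18475 and the shBrca2 sums from 8276 to 14786.

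Other CXC ligands in the table were nearly absent. Cxcl3, a CXCR2 ligand encoded between Cxcl5 and Cxcl1, had 10.3 to 27.8 normalized counts per library, and its fold change on the log2 scale was 0.030 (DESeq2 adjusted p = 0.97), although its promoter held the same NF-κB letters at -73. Pf4, the platelet chemokine CXCL4, had 3.9 to 21.3 (log2 fold change 0.26, DESeq2 adjusted p = 0.89). Ppbp, Cxcl11 and Cxcl17, and the receptors Cxcr1 to Cxcr6, were not analysed here.

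Atypical chemokine receptors bind chemokines without starting the usual signal and remove or transport them. Of the 5 scavengers and related receptors in the table, Ackr1, Ackr2 and Ackr4 fell, Ccrl2 rose and Ackr3 was not called. Of all tested genes, 5.27% were called lower and 3.77% higher. Groups that did not overlap were found in 9.30% of tested genes with shBrca2 lower and in 7.79% with shBrca2 higher. Ackr1, which takes up inflammatory CC and CXC chemokines, had 220, 170 and 154 normalized counts in shControl and 44.7, 76.9, 46.6 and 36.6 in shBrca2. The groups did not overlap, and the mean went from 181 ± 34.8 (SD, n = 3) to 51.2 ± 17.7 (SD, n = 4). Its log2 fold change was -1.80 (SE 0.29, DESeq2 adjusted p = 7.9e-08), and the call held in all 12 alternative fits. In the annotation, 30.4% of its exon bases are shared with other genes, Cadm3 on the same strand among them. Endothelial cells of venules are known to carry Ackr1, and the endothelial markers Pecam1 and Tek were, like it, lower in every shBrca2 library than in every shControl library. Pecam1 had 1.9 to 17.7 normalized counts in shControl and 0 to 1.7 in shBrca2, with a mean count too low to be called (log2 fold change -3.60, SE 1.22, DESeq2 adjusted p = 0.031), and Tek had 7.6 to 28.2 and 4.1 to 7.1 (-1.55, 0.12). The other endothelial markers in the table, Kdr (log2 fold change 0.51, DESeq2 adjusted p = 0.46) and Egfl7 (0.77, 0.53), lay above 0 and were not called. The part of endothelial cells in the value of Ackr1 was not tested.

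Ackr3, the scavenger of CXCL12 and CXCL11, had 958, 646 and 916 normalized counts in shControl and 159, 663, 204 and 187 in shBrca2. Replicate 2 of shBrca2 lay within the shControl range, and the other 3 lay far below it. With all libraries the log2 fold change was -1.47 (SE 0.60, DESeq2 adjusted p = 0.13), and edgeR called it lower (adjusted p = 0.065). Without shBrca2 replicate 2 it was -2.21 (DESeq2 adjusted p = 5.5e-19). Raw counts of Cxcl12 per count of Ackr3 were 4.28, 3.37 and 4.04 in shControl and 10.3, 3.82, 8.03 and 7.70 in shBrca2, so in 3 of the 4 shBrca2 libraries the ligand outnumbered its scavenger by more than in any control.

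Ackr4, which removes CCL19, CCL21 and CCL25, had 280, 242 and 228 normalized counts in shControl and 95.5, 212, 84.6 and 92.5 in shBrca2. The groups did not overlap, but shBrca2 replicate 2 came near the lowest control. Its decrease on the log2 scale gave -1.03 (SE 0.31, DESeq2 adjusted p = 0.020), and -1.46 without that library. Ackr2, a scavenger of inflammatory CC chemokines, fell from 11.8 ± 8.0 (SD, n = 3) to 2.1 ± 1.3 (SD, n = 4) normalized counts (log2 fold change -2.64, DESeq2 adjusted p = 0.029). Its raw counts were 1 to 19 per library, shControl replicate 2 at 2.5 lay within the shBrca2 range, and the call was lost without shControl replicate 1 or 4 or shBrca2 replicate 1 or 2 (DESeq2 adjusted p from 0.13 to 0.25).

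Ccrl2, which binds chemerin and presents it to other cells, moved the other way. It had 118, 81.0 and 164 normalized counts in shControl and 170, 262, 212 and 248 in shBrca2, with the groups apart by a small gap between shControl replicate 4 and shBrca2 replicate 1. The log2 fold change was 0.88 (SE 0.26, DESeq2 adjusted p = 0.020). The call was lost by a small margin without shControl replicate 1 or 2 (DESeq2 adjusted p = 0.11 and 0.10) and with the replicate number as a block (0.11).

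**Figure D4:**
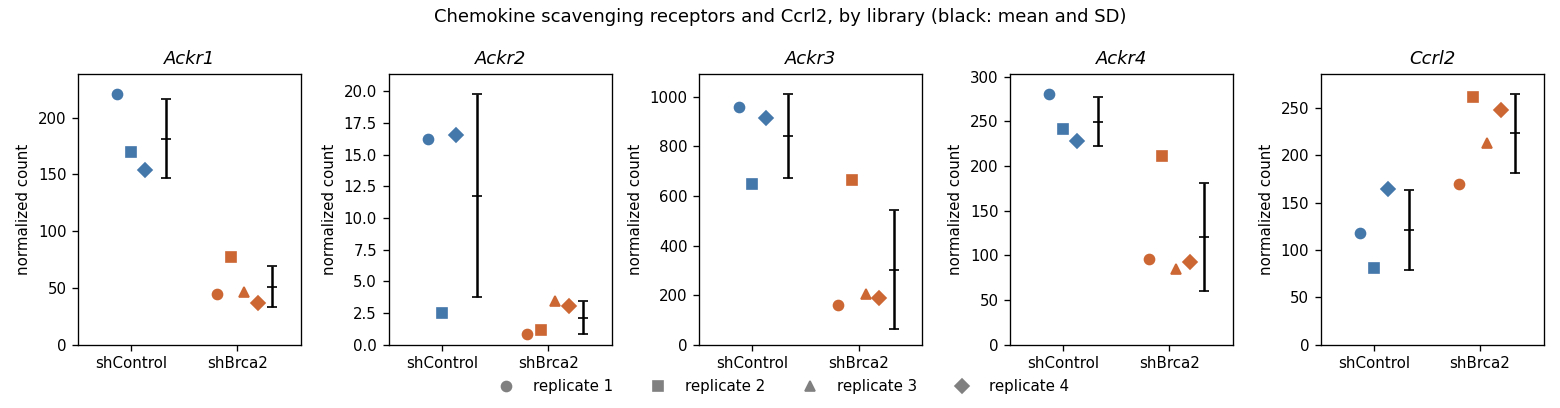
Normalized counts of Ackr1, Ackr2, Ackr3, Ackr4 and Ccrl2 in each library (vertical axes from 0), with group mean and SD in black. In Ackr3 and Ackr4, shBrca2 replicate 2, at 663 and 212, stands above the other shBrca2 libraries.

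**Figure D5:**
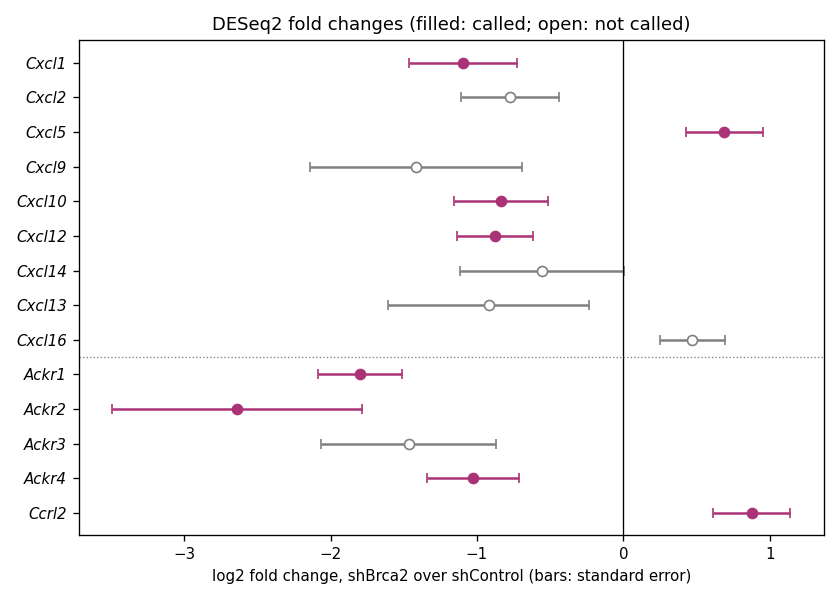
DESeq2 log2 fold changes (shBrca2 over shControl, horizontal axis) with standard errors for the CXC ligands and, under the dotted line, the scavengers; filled points were called. Fold changes ran from -2.64 for Ackr2 to 0.88 for Ccrl2.

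Signals that are known to induce these ligands were described next. Of 28 genes of the NF-κB and IL-1/TNF response, 3 were called higher, 3 were called lower and 22 were not called, with a median log2 fold change of -0.14. The shares over all tested genes were 3.77% higher and 5.27% lower. Those lower were Icam1, an adhesion molecule (986 ± 284 against 585 ± 174, log2 fold change -0.76, DESeq2 adjusted p = 0.054), Csf1, the macrophage growth factor (1964 ± 287 against 1033 ± 221, -0.92, 2.3e-04), and Ccl7, a monocyte attractant (1040 ± 143 against 575 ± 278, -0.85, 0.061). Those higher were Vcam1, an adhesion molecule for lymphocytes and monocytes (199 ± 13.4 against 392 ± 51.2, 0.98, 5.2e-06), Csf3, the neutrophil growth factor G-CSF (35.8 ± 15.7 against 107 ± 28.2, 1.61, 3.5e-04), and Il1rap, a subunit of the IL-1 receptor (14.6 ± 2.7 against 33.6 ± 11.3, 1.24, 0.034). In each of these pairs shControl comes first (SD, n = 3) and shBrca2 second (SD, n = 4). Thus Csf3 rose while Cxcl1 fell, both of which act on neutrophils. The calls of Vcam1, Csf1 and Csf3 held in all 12 alternative fits, and Il1rap, Icam1 and Ccl7 held in 7, 8 and 6. Nfkbia (-0.32, DESeq2 adjusted p = 0.45), Il6 (-0.97, 0.46) and Ccl2 (-0.34, 0.63) were not called. Without shBrca2 replicate 2, 2 genes of this list were called higher and 6 lower: Il1rap lost its call (DESeq2 adjusted p = 0.21), Il6, Ccl2 and Birc3 gained one, and Ccl7 went to -1.25 (DESeq2 adjusted p = 1.9e-07).

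Interferon-response genes had more values below 0 than above it, and those called were all lower. For comparison, 5.27% of all tested genes were called lower. Among 23 genes of the interferon-gamma response, 18 had a log2 fold change below 0, the median was -0.37, and 2 were called, both lower. These were Socs1, a feedback inhibitor of JAK-STAT signaling (439 ± 82.2 against 187 ± 53.2, log2 fold change -1.24, DESeq2 adjusted p = 6.9e-05), and Ifngr1, a chain of the interferon-gamma receptor (212 ± 52.9 against 138 ± 9.8, -0.62, 0.050). Irf1, a transcription factor of this response, had a log2 fold change of -0.37 and was not called. Among 14 genes of the type I response, 12 were below 0, the median was -0.65, and Isg15 (-0.74, DESeq2 adjusted p = 0.062), Ifit3 (-1.14, 0.015) and Bst2 (-0.87, 0.037) were called lower. The calls of Isg15, Ifit3 and Bst2 held in 7, 11 and 10 of 12 alternative fits, Socs1 in 12 and Ifngr1 in 5. Without shBrca2 replicate 2, 4 genes of the interferon-gamma list (Socs1, Gbp3, Irgm2 and Psmb9) and 6 of the type I list (Isg15, Ifit3, Bst2, Irf7, Ifit1 and Usp18) were called lower, with medians of -0.61 and -0.88, and Ifngr1 was not called (DESeq2 adjusted p = 0.11).

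Enzymes that trim or shed chemokines were also examined, since they set how much active ligand remains. Of 10 such genes, 3 fell and 7 were not called, with a median of -0.31, where 5.27% of all tested genes were called lower. Dpp4, which inactivates CXCL10 and CXCL12 by clipping their amino termini, had 48.7, 26.6 and 32.1 normalized counts in shControl and 3.4, 14.6, 12.1 and 9.1 in shBrca2. Its groups did not overlap, as in 9.30% of tested genes with shBrca2 lower (log2 fold change -1.87, standard error 0.47, DESeq2 adjusted p = 0.0021). Mmp3, a matrix protease, fell from 1272 ± 283 (SD, n = 3) to 559 ± 116 (SD, n = 4) (-1.18, DESeq2 adjusted p = 7.4e-06). Ctsb, a lysosomal protease, fell from 296 ± 65.8 (SD, n = 3) to 191 ± 27.9 (SD, n = 4) (-0.64, DESeq2 adjusted p = 0.041), a call that held in 7 of 12 alternative fits, against 12 for both Dpp4 and Mmp3. Without shBrca2 replicate 2, Mmp2 was also called lower.

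Markers of other cells that make or carry these chemokines were set beside these values. For their calls, the shares over all tested genes were 3.77% higher and 5.27% lower. Of 8 macrophage markers in the table, 3 were called higher, Csf1r by 1.15, Cd14 by 1.21 and C1qa by 1.65 on the log2 scale, and their summed normalized counts were 325 to 395 in shControl and 564 to 615 in shBrca2. The difference between these sums lay mostly in Csf1r and Cd14, while Cd68 (-0.32) and Lyz2 (-0.26) were not called and had values below 0. The call of Csf1r held in 12 of 12 alternative fits, Cd14 in 11 and C1qa in 4. Without shBrca2 replicate 2, C1qa lost its call. Adgre1 and Fcgr1 were not analysed here. Epithelial markers rose in 4 of 7 cases, all keratins, with sums of 387 to 1148 and 1444 to 2044. Epcam was not analysed here, Cldn7 was at 0 in shBrca2 replicates 3 and 4, and Krt20 in shControl replicate 2. Of 8 mesothelial markers, 1 was called higher, Krt19, which is also epithelial, and the sums were 907 to 2922 and 2402 to 2905. Fibroblast markers summed to 124516 to 143040 in shControl and 99232 to 119139 in shBrca2. The difference between these sums lay mostly in Col3a1 (mean 54982 against 40400) and Dcn (20576 against 12091). On the log2 scale Pdgfra (0.013), Fap (0.051), Col1a1 (-0.036) and Thy1 (-0.091) changed little. Of 9 such genes Dcn and Lum fell, by 0.77 and 1.18 on the log2 scale. Without shBrca2 replicate 2, Col3a1 was also called lower. Dcn and Krt19 each held their call in 6 of 12 alternative fits, Lum and Krt7 in 10 and Krt8 and Krt18 in 12. The part of these changes in the ligand levels was not tested.

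Neutrophil markers summed to 27.8 to 37.0 normalized counts in shControl and 10.4 to 162 in shBrca2. The highest value was that of shBrca2 replicate 2, the library with the most Cxcl1 of its group. Replicates 1 and 4 of shControl, which had more Cxcl1 than that library, summed to 29.0 and 37.0. Mmp8, also counted among the trimming enzymes, made up most of both control sums, at 23.9 and 32.1. In shBrca2 replicate 2, Mmp8 was at 28.6, below S100a9 (54.8) and Ngp (34.4). The sums of these controls thus say little about the other neutrophil markers. Mmp8 was the 1 tested marker of this list with a fold change below 0 (-0.69 on the log2 scale, DESeq2 adjusted p = 0.56). Ngp was at 0 in shControl replicate 4 and shBrca2 replicate 3, and Ltf in 4 of the 7 libraries. Of 9 neutrophil markers, 6 were in the table, 4 were tested and these were not called by DESeq2 or edgeR. The lowest of their unadjusted p was that of S100a8, 0.026 (log2 fold change 2.58, DESeq2 adjusted p = 0.19). Endothelial markers summed to 70.9 to 127 and 95.0 to 143, most of it Kdr, with Pecam1 at 0 in shBrca2 replicates 3 and 4. Of 8 such markers 4 were in the table, and they are given beside Ackr1. Of lymphocyte markers, 1 of 10, Cd79b, was in the table, at 8.8 normalized counts or fewer. What part these cells had in the ligand levels was not tested.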

How the data were processed

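RNA of sorted CAFs was measured in 7 libraries made with a variant of MARS-seq, which reads transcript 3' ends. The authors deposited 1 table of raw counts per gene symbol, not normalized. The submitters' processing notes name bcl2fastq, cutadapt, STAR 2.4.2a, HTSeq, DESeq2 and mm10. Strand handling and collapsing of molecular barcodes are not given in the sources used here, so counts may include PCR copies. No column was left unused.

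Libraries were grouped by their titles, 3 shControl and 4 shBrca2, and the study gives the same numbers of mice. Counts of each pair of libraries were compared by a mean chi-square per gene. Replicates 1 and 4 of shBrca2 were the most alike, at 3.35, where the other pairs ran from 8.01 to 36.4. Both were kept as separate mice. All 12771 genes were fitted in R 4.3.3 with DESeq2 1.42.0, by a likelihood ratio test of group and no covariate, as in the study. A gene was called at an adjusted p (Benjamini-Hochberg) under 0.1, an absolute log2 fold change over 0.5 and a mean normalized count over 5. Fold changes were not shrunken, and 3 genes received no p. Code was tested on simulated data.

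The members and gene lists were chosen with earlier results of these data known. Named were all members present, all scavengers present, each called gene of a pathway list, and the 2 most abundant genes of a list without calls; further genes were named for contrast after their values were seen. Alternatives were edgeR 4.0.16 with its quasi-likelihood test and TMM factors, DESeq2 with TMM factors, its Wald test, a filter of 10 counts in 3 libraries, a replicate block and leaving out each library, 12 fits in all. Promoters and positions are from RefSeq (GRCm38.p6), and exon overlaps from GENCODE vM39 on GRCm39. Words of 50 bases in the last 500 bases of each ligand and scavenger were found in no other gene.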

Additional observations from a re-analysis of the deposited data

Results flagged for a closer look

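Values of Ackr3 and Ackr4 in the shBrca2 group were picked out because 1 library lay far from the other 3. For Ackr3, the gap between shBrca2 replicate 2, at 663 normalized counts, and the next library was 0.912 of the group's whole range. For Ackr4, with 212 in the same library, it was 0.914. Both lie above Dixon's 95% critical value for 4 samples, which chance alone passes in about 1 of 20 groups. The ratio was computed for every CXC ligand and scavenger in the table, so a pass by chance among them is not unlikely. Both values come from the same library and are not separate outliers. Without this library the log2 fold changes were -2.21 for Ackr3 and -1.46 for Ackr4, and both were called lower by DESeq2.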

How the results depend on the processing

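With 3 and 4 mice, single libraries decided several calls. Leaving out single libraries gave 261 to 610 genes called higher and 354 to 695 called lower over all genes, against 481 and 673 with all libraries, and 0 to 2 CXC ligands called higher and 1 to 4 called lower, against 1 and 3. edgeR called 0 ligands higher and 1 lower (2 and 5 at an unadjusted p under 0.05). Over the 34 ligands, scavengers and called pathway genes, fold changes turned sign only in fits without 1 library. In them the log2 fold change ran from -1.32 to 0.30 for Cxcl13, from -0.86 to 0.034 for Cxcl14, from -0.27 to 0.47 for Cxcl3 and from -0.18 to 0.71 for Pf4. DESeq2 with TMM factors, the Wald test and the low-count filter called the same 4 ligands as the full set; Ackr2 is removed by the filter. Over the same 34 genes, 322 values in other fits kept their direction and side of the threshold, 69 lost the call, 8 gained it and 7 turned sign.

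Replicate numbers gave no sign of pairing the samples: deviations of same-numbered libraries correlated at -0.09, -0.13 and -0.14, and no library correlated best with its own number. Deviations within groups this small depend on each other, so these values cannot show whether same-numbered libraries shared a batch. With the number as a replicate block, 211 genes were called higher and 280 lower, and of the ligands 0 were called higher (1 at an unadjusted p under 0.05 by DESeq2) and 1, Cxcl2, was called lower.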

Other observations

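Heparan sulfate, the sugar chain on which chemokines are held at the cell surface, is built and carried by 18 genes of the table, of which 2 were called higher, 2 lower and 14 not, with a median log2 fold change of -0.20. Among all tested genes, 3.77% were called higher and 5.27% lower. Sulf2, which removes sulfate groups from the chain, fell from 972 ± 75.3 normalized counts (SD, n = 3) to 524 ± 148 (SD, n = 4), and Sdc3, a carrier protein, fell from 316 ± 35.9 to 162 ± 48.4 (log2 fold changes -0.89 and -0.96, DESeq2 adjusted p = 0.0023 and 0.0029). Sdc1, another carrier that epithelial cells also make, rose from 751 ± 306 to 1490 ± 340.5, and Hs3st1, which adds sulfate groups, from 101 ± 36.6 to 178 ± 20.4 (0.99 and 0.83, DESeq2 adjusted p = 0.011 and 0.025). The calls of Sulf2, Sdc1 and Sdc3 held in all 12 alternative fits and that of Hs3st1 in 8.

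Among 5 stromal genes of lymphoid organs, which organize lymphocytes together with Cxcl13, 1 was called lower and 4 were not called. Of all tested genes, 5.27% were called lower. The gene called was Tnfsf13b, the B cell survival factor BAFF. It had 91.4, 51.9 and 76.9 normalized counts in shControl and 32.7, 42.5, 34.5 and 27.4 in shBrca2. Its groups did not overlap, as in 9.30% of tested genes with shBrca2 lower. The change of Tnfsf13b on the log2 scale was -1.09 (SE 0.30, DESeq2 adjusted p = 0.0062). The call held in 10 of 12 alternative fits and was lost without shControl replicate 1 and with the replicate block. Ccl19, a T cell attractant, was at 5.2 to 21.5 normalized counts per library and was not called. Tnfsf11 (log2 fold change 0.81, DESeq2 adjusted p = 0.17), Madcam1 (0.50, 0.90) and Ltbr (-0.28, 0.19) were not called either.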
